A study of Danio rerio with 9 samples.

Results

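The UDP-glucuronosyltransferases (ugt genes) and the cytosolic sulfotransferases (sult genes) of zebrafish liver were taken as every gene whose symbol begins with ugt or sult followed by a digit and that had a value above 0 in at least 1 library. By that rule there were 47 genes among 33716 gene IDs, of which 28 were ugt genes and 19 were sult genes. A further 2 symbols, ugt5e1 and ugt5g2, were listed at 0 in all 9 libraries and were left out. The rule used names and detection, not differences between groups.

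These enzymes carry out the conjugation step of detoxification. A glucuronosyltransferase joins glucuronic acid, carried by UDP, to bilirubin, steroids, bile acids and drugs in the endoplasmic reticulum, and a cytosolic sulfotransferase joins a sulfate group, carried by 3'-phosphoadenosine 5'-phosphosulfate (PAPS), to phenols, thyroid hormones, steroids and bile alcohols. Both reactions make lipophilic molecules soluble enough to leave the liver in bile or blood.

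The study measured liver RNA by sequencing in 3 groups of 3 libraries. The wild type was of the AB line and, like the MZ pdia6-/- group, was sampled at an age of 3.5 months. No age was found in the labels of the MZ focad-/- group. MZ stands for maternal-zygotic, a null in which the egg's own supply of the gene product is missing too. Pdia6 encodes an enzyme of the endoplasmic reticulum that rearranges disulfide bonds, and focad encodes focadhesin. AB is named for the wild type only, so line and genotype cannot be told apart, and in the focad null neither can age and genotype. Whether each library came from its own fish is not in the labels, so a p-value here measures spread between libraries that may be technical.

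The libraries held 46.1 to 54.5 M reads assigned to genes. Fabp10a, which defines zebrafish hepatocytes, stood between 11024 and 33693 FPKM (fragments counted per length of transcript and depth of the library) in every library. The 18 hepatocyte markers summed to 159469 to 186937 FPKM in wild type, 139783 to 150909 in the focad null and 150596 to 161137 in the pdia6 null, with median log2 differences from wild type of -0.39 and -0.30 and none past the test. Focad was at 0.528 FPKM in the library labelled focad null replicate 2, inside the wild-type range of 0.521 to 1.13, and pdia6 stood at 44.3 FPKM in the library labelled pdia6 null replicate 1, where wild type ranged from 14.2 to 265. By these levels alone neither library stood apart from wild type, and some null alleles are still transcribed. Pdia6 was at 265, 14.2 and 56.4 FPKM in wild type and 44.3, 0.902 and 0.913 in the pdia6 null. Hspa5, a chaperone gene of the endoplasmic reticulum, was at 734, 10.7 and 199 FPKM in wild type and 2359, 16.3 and 37.9 in the pdia6 null. Whether the labels of these libraries hold was not tested. The 24 intestine marker genes, none of them at 0 throughout, summed to 218 to 1205 FPKM in wild type, 1422 to 19698 in the focad null and 370 to 2448 in the pdia6 null, with the highest sum in the library labelled focad null replicate 2. Exocrine pancreas markers summed to 571 to 1737, 1287 to 5858 and 699 to 1411 FPKM in the same order, and endocrine pancreas markers to 0.331 to 3.64, 9.05 to 222 and 4.84 to 10.4 FPKM. Kidney tubule markers summed to 39.1 to 144, 65.9 to 272 and 28.4 to 63.5 FPKM. In the focad null against wild type, all 21 intestine markers tested were higher (median log2 difference 2.98) and none passed the test. Of 25 exocrine markers 23 were higher (median 1.19) and 2 passed, beside 1.56% of all genes. The part of other tissues in the results below was not tested.

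The 47 genes covered 5 classes of level. By mean over the 9 libraries, 5 genes lay at 50 FPKM or above, 5 between 10 and 50, 22 between 1 and 10, 6 between 0.5 and 1, and 9 below 0.5. The last 9 were not tested: ugt1b2, ugt2b3, ugt5c1, sult1st7, sult1st9, sult3st1, sult3st4, sult4a1 and sult5a1. That left 38 genes, 25 ugt and 13 sult. Of these, 31 had a mean of at least 0.5 FPKM in each group. The others, namely ugt1b1, ugt1b7, ugt2a6, ugt5a2, ugt5b3, sult3st2 and sult3st5, passed the filter through the groups in which they were high. In bulk liver, fewer cells of a type and less RNA per cell cannot be told apart.

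**Figure D1:**
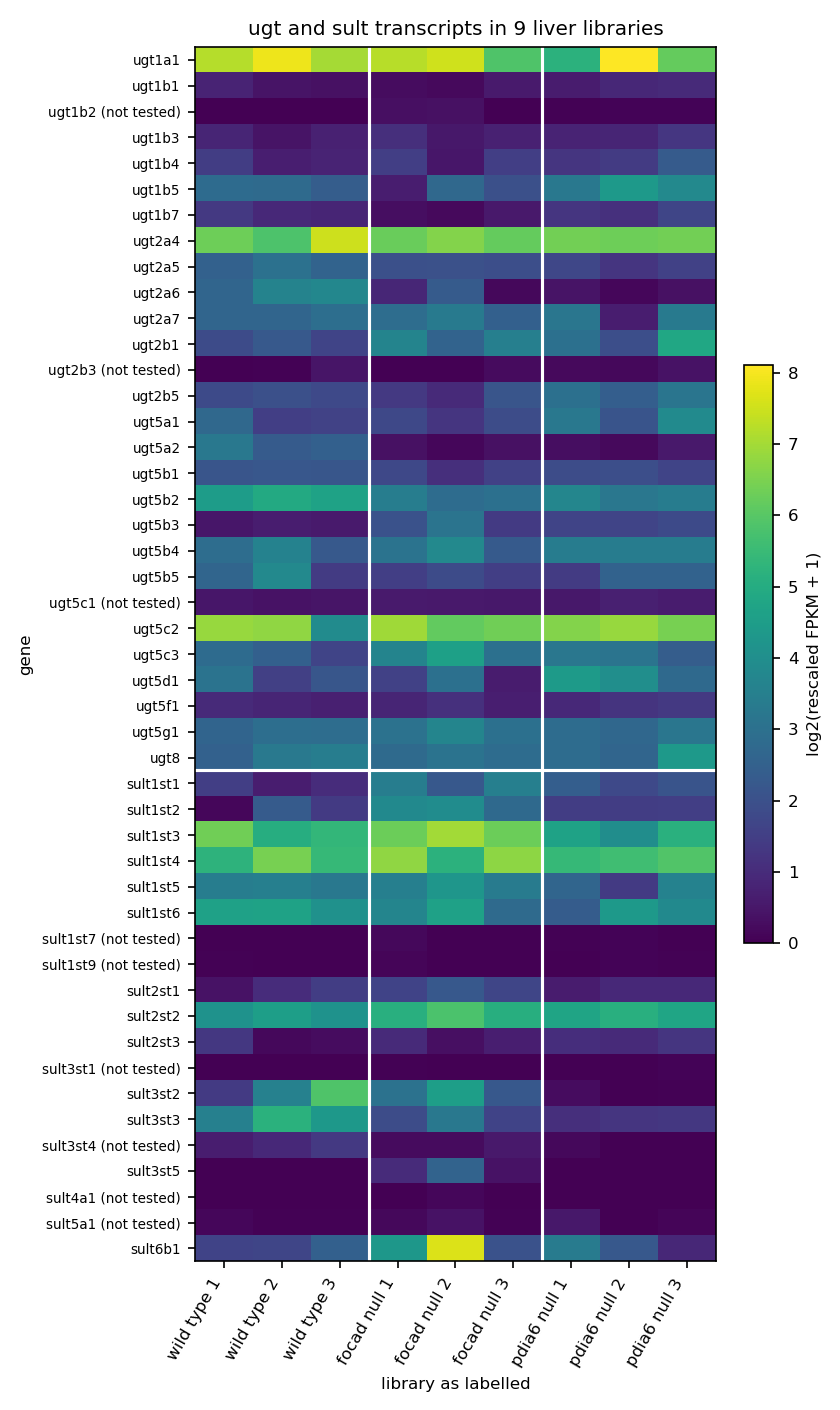
Each row is a ugt or sult gene and each column a library, with wild type, focad null and pdia6 null from left to right, and colour gives log2(rescaled FPKM + 1). Ugt1a1, ugt2a4, ugt5c2, sult1st3 and sult1st4 are bright in most libraries, while ugt5a2 is bright in the 3 wild-type libraries and dark in the other 6.

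Among the glucuronosyltransferases, 3 genes made up 75.0% of the summed level averaged over the libraries. Ugt1a1 (ENSDARG00000006220) belongs to the family that in mammals conjugates bilirubin, and its 3 wild-type libraries gave 147, 237 and 129 FPKM. Libraries 1 to 3 labelled focad null gave 149, 181 and 57.6 FPKM, and those labelled pdia6 null gave 36.4, 274 and 72.2. The pdia6 null libraries alone spanned the whole range, and the groups overlapped. The log2 differences from wild type on log2(FPKM + 1) were -0.50 for the focad null and -0.87 for the pdia6 null, neither past the test in limma.

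Ugt1a1 is part of a locus in which the RefSeq annotation GRCz12tu lists 6 gene names with a shared start, so its value may hold reads of several of them. Ugt2a4, a member of the family that in mammals handles steroids and drugs, has the same feature with 4 names. Ugt2a4 was at 78.6, 56.1 and 180.1 FPKM in wild type, 75.0, 96.0 and 71.5 in the focad null and 81.4, 78.4 and 82.5 in the pdia6 null. The wild-type libraries held both its lowest and its highest value. Ugt5c2, of a ugt family known from fish and not from mammals, was at 116, 108 and 14.2 FPKM in wild type, 123, 71.1 and 80.0 in the focad null and 95.3, 114 and 85.7 in the pdia6 null. Wild-type replicate 3 was thus the highest library for ugt2a4 and the lowest for ugt5c2, and without it the sign of both genes' differences turned in both comparisons, to 0.27 and 0.28 for ugt2a4 and to -0.33 and -0.20 for ugt5c2.

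Summed over all 28 ugt genes, the level was 449, 526 and 422 FPKM in wild type, 430, 461 and 278 in the focad null and 330, 567 and 391 in the pdia6 null. The means were 466 ± 54.2, 390 ± 98.0 and 429 ± 123 FPKM (SD, n = 3 each), and the ranges overlapped.

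Among the sulfotransferases, sult1st4, sult1st3 and sult2st2 made up 63.0% of the summed level. Sult1 genes act mainly on phenols and sult2 genes on hydroxysteroids. Sult1st4 was at 37.1, 85.2 and 42.4 FPKM in wild type, 106, 35.9 and 105 in the focad null and 42.2, 47.9 and 58.3 in the pdia6 null, with the library labelled focad null replicate 2 the lowest of the 9. Sult1st3 (ENSDARG00000018361) was at 79.9, 32.4 and 39.99 FPKM in wild type, 77.0, 125 and 76.9 in the focad null and 24.6, 14.6 and 34.7 in the pdia6 null.

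The summed sult level was 186, 229 and 211 FPKM in wild type, 296, 523 and 259 in the focad null and 121, 128 and 153 in the pdia6 null. Every focad null library lay above the wild-type range and every pdia6 null library below it, and the means were 209 ± 22.02, 359 ± 143 and 134 ± 17.1 FPKM (SD, n = 3 each). A single gene, sult6b1, gave 206 of the 523 FPKM in the library labelled focad null replicate 2, against 18.6 and 3.12 in the other libraries labelled focad null. Sult3st2 gave 58.2 of the 211 FPKM in wild-type replicate 3, against 1.603 and 10.8 in wild-type replicates 1 and 2. Without sult3st2, the sum of pdia6 null replicate 3 no longer lay below that of wild-type replicate 3. The lack of overlap between the pdia6 null and wild-type sums thus rests on this gene. The sult1 genes alone summed to 152, 157 and 109 FPKM in wild type, 229, 221 and 214 in the focad null and 82.3, 87.8 and 123 in the pdia6 null. Their pdia6 null range overlapped that of wild type, and their focad null range did not. These sums are descriptions, without a test over the genes.

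**Figure D2:**
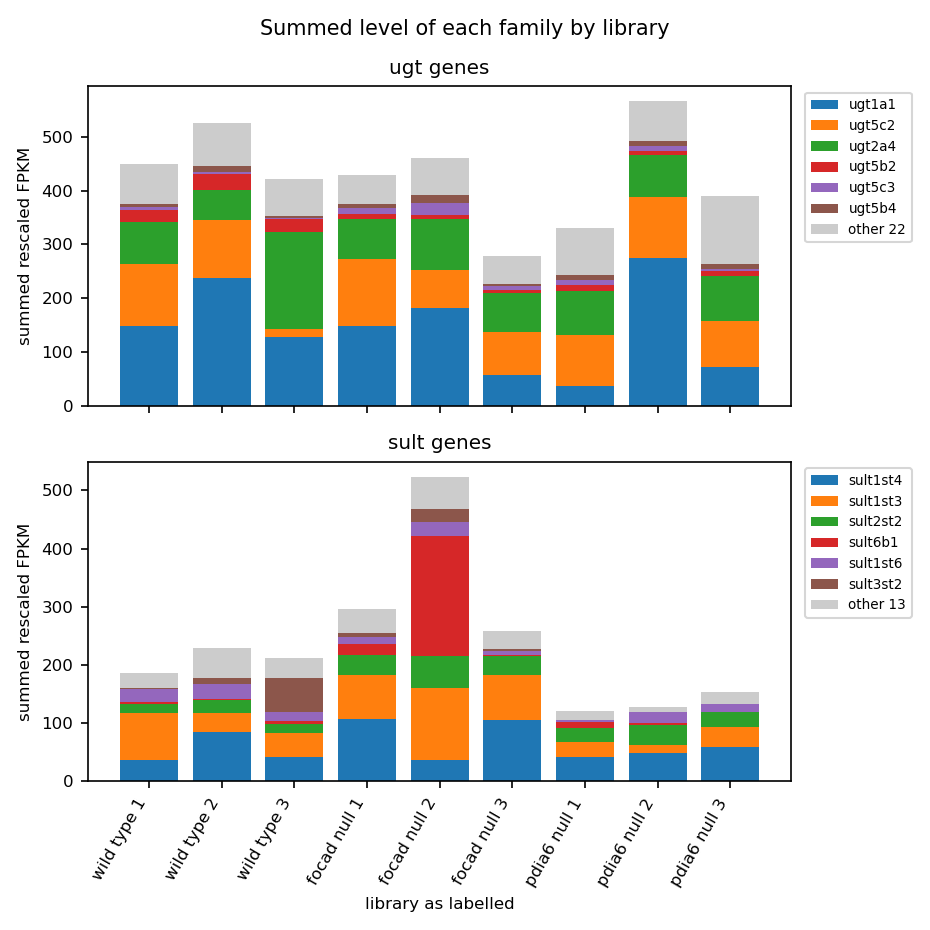
Stacked bars give the summed rescaled FPKM of the ugt genes and of the sult genes in each library, with the highest genes coloured and the rest in grey. The sult bars of the focad null run from 259 to 523 FPKM, above the wild-type bars of 186 to 229, and those of the pdia6 null from 121 to 153.

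Against wild type, 3 of the 38 genes passed limma at an adjusted p of 0.05 in the focad null, beside 1.56% of all 13290 genes tested. Ugt5a2 and ugt5b2 were lower, as were 0.933% of all genes, and sult1st1 was higher, as were 0.625%. In the pdia6 null 5 of the 38 passed, beside 1.23% of all genes, and all 5 were lower (0.707% of all genes): ugt5a2, ugt5b2, ugt2a5, ugt2a6 and sult3st3. Both comparisons use the same wild-type libraries, so their values are given side by side only. The library groups did not overlap for 16 of the 38 genes between focad null and wild type, beside 20.0% of all genes, and for 12 of the 38 between pdia6 null and wild type, beside 20.6%.

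Ugt5a2 (ENSDARG00000093640), of the fish ugt5 family, was at 8.38, 4.05 and 4.56 FPKM in wild type, 0.277, 0.112 and 0.276 in the focad null and 0.239, 0.143 and 0.457 in the pdia6 null. In reads this was 926, 386 and 504 in wild type, 38, 11 and 35 in the focad null and 29, 18 and 52 in the pdia6 null. All 6 null libraries lay below all 3 wild-type libraries. With means of 5.66 FPKM in wild type, 0.222 in the focad null and 0.280 in the pdia6 null, ugt5a2 passed the filter through wild type, where it was high. With no filter on low values, its limma adjusted p was 0.00623 for the focad null and 0.00691 for the pdia6 null. Its mean was 25.5-fold lower in the focad null (log2 difference on log2(FPKM + 1) -2.39, SE 0.24, limma adjusted p = 0.00262) and 20.2-fold lower in the pdia6 null (-2.33, SE 0.24, adjusted p = 0.00298). It fell in both comparisons in all 9 fits that left out 1 library, with adjusted p between 0.00233 and 0.0170 for the focad null and between 0.00294 and 0.0217 for the pdia6 null. It also fell without the libraries labelled focad null replicate 2 and pdia6 null replicate 1 together (adjusted p = 0.0177 and 0.0187). The authors' deposited table gave adjusted p of 3.65e-06 for the focad null and 3.23e-07 for the pdia6 null.

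In the RefSeq order ugt5a2 lies between ugt5a3 and ugt5a1. Ugt5a3, with ugt5a4 and ugt5a5 beyond it, had no match by symbol among the genes measured. Whether reads shared with these copies bear on the level of ugt5a2 was not tested. Ugt5a1 is the next gene on the other side. It was at 5.69, 1.85 and 2.05 FPKM in wild type, 2.40, 1.38 and 2.70 in the focad null and 8.52, 3.33 and 13.6 in the pdia6 null. The wild-type range overlapped both null ranges, and the log2 differences were -0.32 and 1.12, neither past the test.

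**Figure D3:**
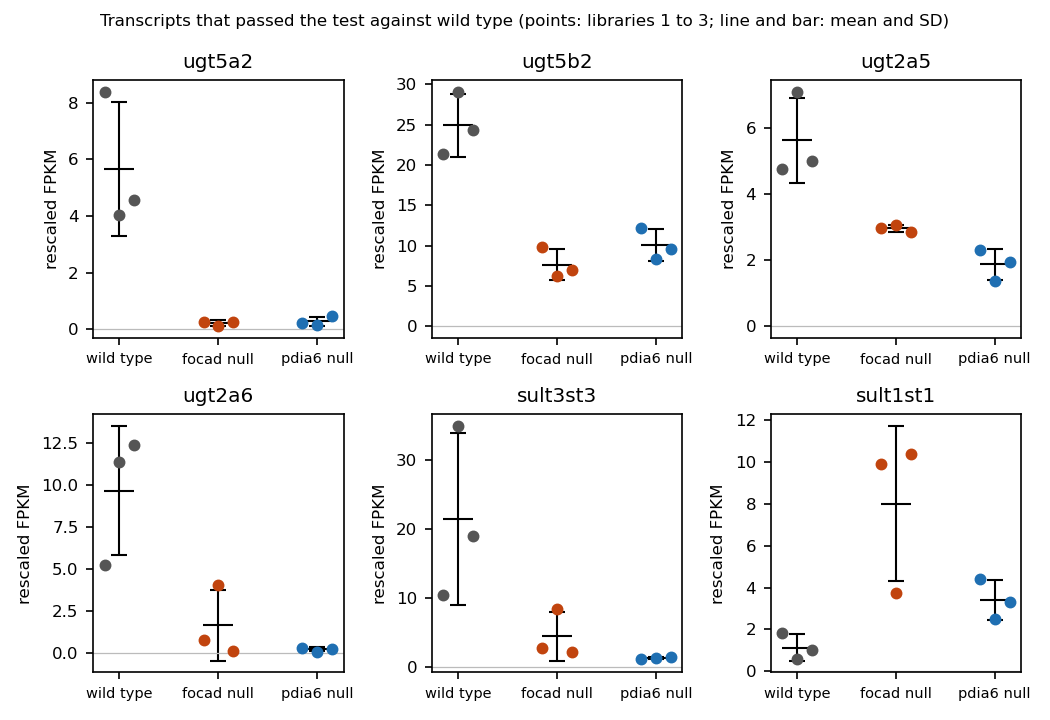
Points are the rescaled FPKM of libraries 1 to 3 in each group, with the group mean and SD as line and bar, for the 6 genes that passed limma against wild type in either null. In ugt5a2 the 6 null libraries lie at 0.457 FPKM or below and the wild-type libraries at 4.05 or above.

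Ugt5b2 (ENSDARG00000101495) was at 21.4, 29.1 and 24.3 FPKM in wild type, 9.78, 6.21 and 6.93 in the focad null and 12.2, 8.36 and 9.53 in the pdia6 null. All 6 null libraries again lay below the wild-type libraries. It fell 3.26-fold in the focad null (log2 difference -1.596, SE 0.24, limma adjusted p = 0.0136), a call that ended without wild-type replicate 2 (0.0551) or 3 (0.0516). It fell 2.49-fold in the pdia6 null (-1.24, SE 0.24, adjusted p = 0.0492), where the call held in 1 of the 9 fits that left out a library, the one without the library labelled focad null replicate 2 (0.0396), and the other 8 gave 0.0615 to 0.174. With no filter on low values, FPKM as deposited, upper quartile scaling, a pseudocount of 0.1, a fit of the 6 libraries compared or limma voom, it ended as well (0.0516 to 0.0906). With a replicate block the limma adjusted p was 0.118. Neither difference was called in the authors' deposited table (0.457 and 0.301).

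Its neighbour ugt5b3 lay on the other side. Ugt5b3 was at 0.413, 0.585 and 0.489 FPKM in wild type, 3.11, 7.67 and 1.63 in the focad null and 2.18, 2.17 and 2.57 in the pdia6 null, so that all 6 null libraries lay above the wild-type libraries. The log2 differences were 1.603 (SE 0.37, limma adjusted p = 0.0900) and 1.14 (SE 0.37, adjusted p = 0.244), and neither passed. Without focad null replicate 3 the first had an adjusted p of 0.0130, and with the library labelled focad null replicate 2 left out the second had 0.0293, while the authors' deposited table gave 0.476 and 0.0199. Ugt5b1, on the far side of ugt5b2, was at 3.39, 3.61 and 3.50 FPKM in wild type, 2.40, 1.11 and 1.99 in the focad null and 2.70, 2.86 and 2.15 in the pdia6 null. Its null libraries lay below the wild-type libraries without passing the test (log2 differences -0.69 and -0.34). Reads shared between such copies may be lost or placed on another copy, so the values of single ugt5b genes are uncertain.

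Ugt2a5 (ENSDARG00000011537) was at 4.77, 7.09 and 4.99 FPKM in wild type, 2.97, 3.07 and 2.84 in the focad null and 2.30, 1.38 and 1.94 in the pdia6 null. The 3 groups did not overlap. It fell 3.00-fold in the pdia6 null (log2 difference -1.20, SE 0.20, limma adjusted p = 0.0289), and its difference in the focad null was -0.72 (adjusted p = 0.149). The pdia6 null call held without wild-type replicate 1 (0.0430) or the library labelled focad null replicate 2 (0.0290), and leaving out any other library gave 0.0528 to 0.108. In a fit of the 6 libraries compared it was 0.0687, and with a replicate block it was 0.101. The authors' deposited table gave 0.136 for the pdia6 null.

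Ugt2a6 (ENSDARG00000039501) was at 5.27, 11.3 and 12.4 FPKM in wild type, 0.817, 4.04 and 0.124 in the focad null and 0.347, 0.112 and 0.292 in the pdia6 null. The pdia6 null values rest on 24, 8 and 19 reads against 333, 618 and 780 in wild type. Every null library lay below every wild-type library, and the library labelled focad null replicate 2 was the null library nearest to wild type. Ugt2a6 fell 38.6-fold in the pdia6 null (log2 difference -3.02, SE 0.52, limma adjusted p = 0.0338). That call held without wild-type replicate 1 (0.0371), the library labelled focad null replicate 2 (0.00443) or focad null replicate 3 (0.0214), and leaving out any other library gave 0.0666 to 0.131. It also ended with no filter on low values (0.0580), with a replicate block (0.0772) and with limma voom on recovered reads (0.162). The gene passed the filter through the groups in which it was high. In the focad null its difference was -2.22 (SE 0.52, adjusted p = 0.0900), and with the library labelled focad null replicate 2 left out it was -2.82 with an adjusted p of 0.00989. The authors' deposited table gave 0.0209 for the focad null and 1.67e-07 for the pdia6 null.

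The other ugt genes did not pass the test. Ugt2b5 was at 2.53, 2.95 and 2.48 FPKM in wild type, 1.52, 0.973 and 3.38 in the focad null and 6.98, 4.40 and 7.88 in the pdia6 null, whose libraries were the 3 highest (log2 difference from wild type 0.99, SE 0.31, limma adjusted p = 0.223). Its neighbour ugt2b1 was at 2.59, 3.75 and 2.17 FPKM in wild type, 11.7, 4.93 and 10.4 in the focad null and 6.93, 2.88 and 27.3 in the pdia6 null, so the focad null libraries lay above wild type and the pdia6 null libraries overlapped it. Ugt5c3 was at 6.05, 4.65 and 2.197 FPKM in wild type and 11.5, 23.5 and 6.99 in the focad null, again without overlap (log2 difference 1.42, adjusted p = 0.211). Ugt1b5 was at 6.18, 6.05 and 4.20 FPKM in wild type, 0.560, 5.69 and 2.94 in the focad null and 8.52, 19.3 and 12.9 in the pdia6 null, with the pdia6 null libraries above the rest (log2 difference from wild type 1.12, adjusted p = 0.417). Ugt8, whose mammalian counterpart adds galactose to ceramide and not glucuronic acid, ranged from 4.67 to 9.94 FPKM in 8 of the libraries and reached 19.3 in pdia6 null replicate 3.

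Of the sult1 genes, sult1st7, sult1st9, sult1st1, sult1st2 and sult1st3 are neighbours in this RefSeq order, and sult1st4, sult1st5 and sult1st6 lie elsewhere. Sult1st7 and sult1st9 were nearly silent, with no library above 0.1405 FPKM. Sult1st1 (ENSDARG00000028275) was at 1.81, 0.567 and 1.03 FPKM in wild type, 9.91, 3.74 and 10.4 in the focad null and 4.39, 2.48 and 3.30 in the pdia6 null. All 6 null libraries lay above the wild-type libraries. It rose 7.05-fold in the focad null (log2 difference 2.01, SE 0.38, limma adjusted p = 0.0422), and in the pdia6 null its difference was 1.06 (SE 0.38, adjusted p = 0.288). The focad null call held in 1 of the 9 fits that left out a library, without the library labelled focad null replicate 2 (0.00765), and ended without any other library (0.0559 to 0.170), with no filter on low values (0.0718), with FPKM as deposited (0.0564), with upper quartile scaling (0.0563), in a fit of the 6 libraries compared (0.112) and with limma voom (0.0925). The authors' deposited table gave 0.0364.

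Sult1st2 was at 0.0921, 4.04 and 1.59 FPKM in wild type, 13.4, 14.4 and 5.83 in the focad null and 1.76, 1.76 and 1.85 in the pdia6 null. The focad null libraries were the 3 highest, with a log2 difference from wild type of 2.24 (SE 0.53, limma adjusted p = 0.0902) and from the pdia6 null of 2.04 (SE 0.53, adjusted p = 0.118). In the authors' deposited table its adjusted p against wild type was 0.0347. Sult1st3, at the end of the row, differed by 1.92 between focad null and pdia6 null (SE 0.43, adjusted p = 0.0817), and its groups there did not overlap. The intestine markers were also highest in the focad null. Without the library labelled focad null replicate 2, where their sum was 19698 FPKM, the difference of sult1st2 from wild type was 2.03 (adjusted p = 0.185) and that of sult1st1 was 2.42. The libraries labelled focad null replicates 1 and 3 still had intestine sums of 3106 and 1422 FPKM, above the wild-type sums of 218 to 1205. The part of intestine in these differences was not tested. Exocrine pancreas markers, at 5858, 1287 and 2748 FPKM in the 3 focad null libraries, were lowest in replicate 2, as was sult1st1. They summed to 571, 1737 and 812 FPKM in wild type and to 699, 1411 and 833 in the pdia6 null. In those groups replicate 2 was the highest for these markers and the lowest for sult1st1. Their part in its difference was not tested.

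None of the 3 sult2 genes tested passed against wild type. Sult2st2 was at 16.7, 22.3 and 16.4 FPKM in wild type, 33.4, 55.5 and 32.6 in the focad null and 25.6, 33.5 and 26.0 in the pdia6 null. All 6 null libraries lay above wild type (log2 differences 1.06, limma adjusted p = 0.114, and 0.59, adjusted p = 0.416). Its neighbour sult2st1 was at 0.318, 1.06 and 1.77 FPKM in wild type, 2.07, 3.73 and 2.25 in the focad null and 0.543, 0.891 and 0.925 in the pdia6 null. Here the focad null libraries alone stood above the others (log2 difference from wild type 0.88, adjusted p = 0.222). Sult2st3 was at 1.498, 0.125 and 0.1997 FPKM in wild type, 0.972, 0.259 and 0.602 in the focad null and 1.11, 0.966 and 1.36 in the pdia6 null, with wild-type replicate 1 the highest library and overlap between all groups.

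The sult3 genes lie in the RefSeq order sult3st3, sult3st5, sult3st4 and sult3st2. Sult3st3 (ENSDARG00000042920) was at 10.4, 34.9 and 19.03 FPKM in wild type, 2.71, 8.47 and 2.11 in the focad null and 1.15, 1.36 and 1.496 in the pdia6 null. The 3 groups did not overlap. It fell 16.1-fold in the pdia6 null (log2 difference -3.11, SE 0.49, limma adjusted p = 0.0250), and this call ended without wild-type replicate 2 (0.0745) or 3 (0.0843) or without the library labelled pdia6 null replicate 1 (0.0837), 2 (0.0974) or 3 (0.0748), and with limma voom (0.0648). In the focad null its difference was -2.08 (SE 0.49, adjusted p = 0.0946), and -2.57 (adjusted p = 0.0291) without the library labelled focad null replicate 2. The authors' deposited table gave 0.0176 for the pdia6 null.

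Sult3st2 had a wider spread. It was at 1.603, 10.8 and 58.2 FPKM in wild type, 7.29, 22.6 and 3.68 in the focad null and 0.213, 0 and 0.0324 in the pdia6 null. The pdia6 null libraries held 14, 0 and 2 reads and the wild-type libraries 96, 556 and 3490, so the groups did not overlap. With that spread in wild type the log2 difference of -3.50 (SE 1.02) had a limma adjusted p of 0.187. Between focad null and wild type, where the libraries overlapped, the sign of its difference turned from -0.33 to 0.81 without wild-type replicate 3 and to 0.20 without focad null replicate 3.

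Sult3st4, too low to be tested, had 57, 81 and 159 reads in wild type, 23, 16 and 55 in the focad null and 15, 0 and 0 in the pdia6 null. The authors' deposited table called it lower in the pdia6 null, with an adjusted p of 0.00184. Sult3st5 had the other pattern, with 0, 0 and 1 reads in wild type, 75, 271 and 23 in the focad null and 0 in all 3 pdia6 null libraries. It was thus detected in the focad null almost alone, at 0.979, 4.93 and 0.324 FPKM (log2 difference from wild type 1.31, SE 0.46, limma adjusted p = 0.252). Its highest library was again the library labelled focad null replicate 2. Intestine markers had the same order in those 3 libraries, at summed levels of 3106, 19698 and 1422 FPKM. They also summed to 2448 FPKM in pdia6 null replicate 2 and 1205 in wild-type replicate 2, where sult3st5 had 0 reads. Such sums are weighted to the highest genes. With each tested marker centred on its mean log2 level over the 9 libraries, the median was -0.98 and -0.85 there. It was 1.94, 4.16 and -0.33 in libraries 1 to 3 labelled focad null. Their part in its level was not tested.

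**Figure D4:**
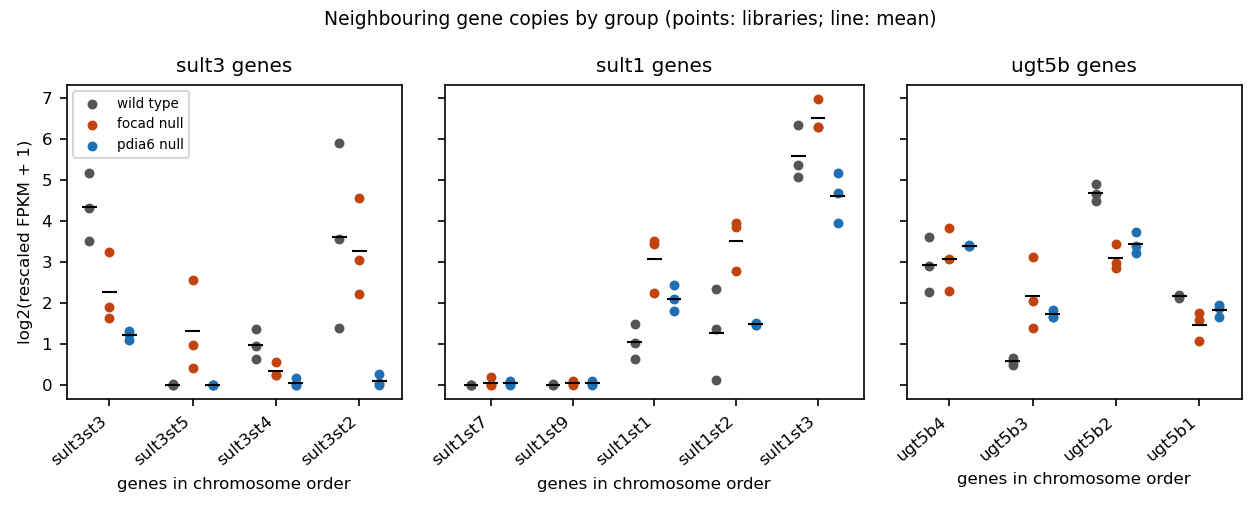
Points are log2(rescaled FPKM + 1) of the 3 libraries of each group and lines are group means, for neighbouring sult3, sult1 and ugt5b genes in RefSeq order. In the pdia6 null, sult3st2 stands near the floor and sult3st3 lies below the other groups. Sult3st5 lies above 0 in the focad null and, outside it, only by 1 wild-type read. Ugt5b2 and ugt5b3 stand on opposite sides of wild type in both nulls.

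The remaining sult genes were variable. Sult6b1 was at 2.08, 2.25 and 4.66 FPKM in wild type, 18.6, 206 and 3.12 in the focad null and 9.27, 3.66 and 0.888 in the pdia6 null. Its 3 groups overlapped, and 1 library set its mean. The intestine marker fabp2, at 237, 3640 and 71.1 FPKM in the focad null and at most 6.05 elsewhere, had the same order of libraries there as sult6b1. The orders differed in the other groups, with fabp2 at 2.60, 6.05 and 4.72 FPKM in wild type and 0.217, 3.45 and 2.34 in the pdia6 null. The part of intestine in the level of sult6b1 was not tested. Sult1st6 was at 23.6, 24.5 and 16.02 FPKM in wild type, 11.9, 24.1 and 5.97 in the focad null and 4.11, 19.4 and 13.5 in the pdia6 null, again with overlap. Sult4a1, a brain enzyme in mammals, was at 0 in 8 of the 9 libraries and at 0.103 FPKM in the library labelled focad null replicate 2.

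**Figure D5:**
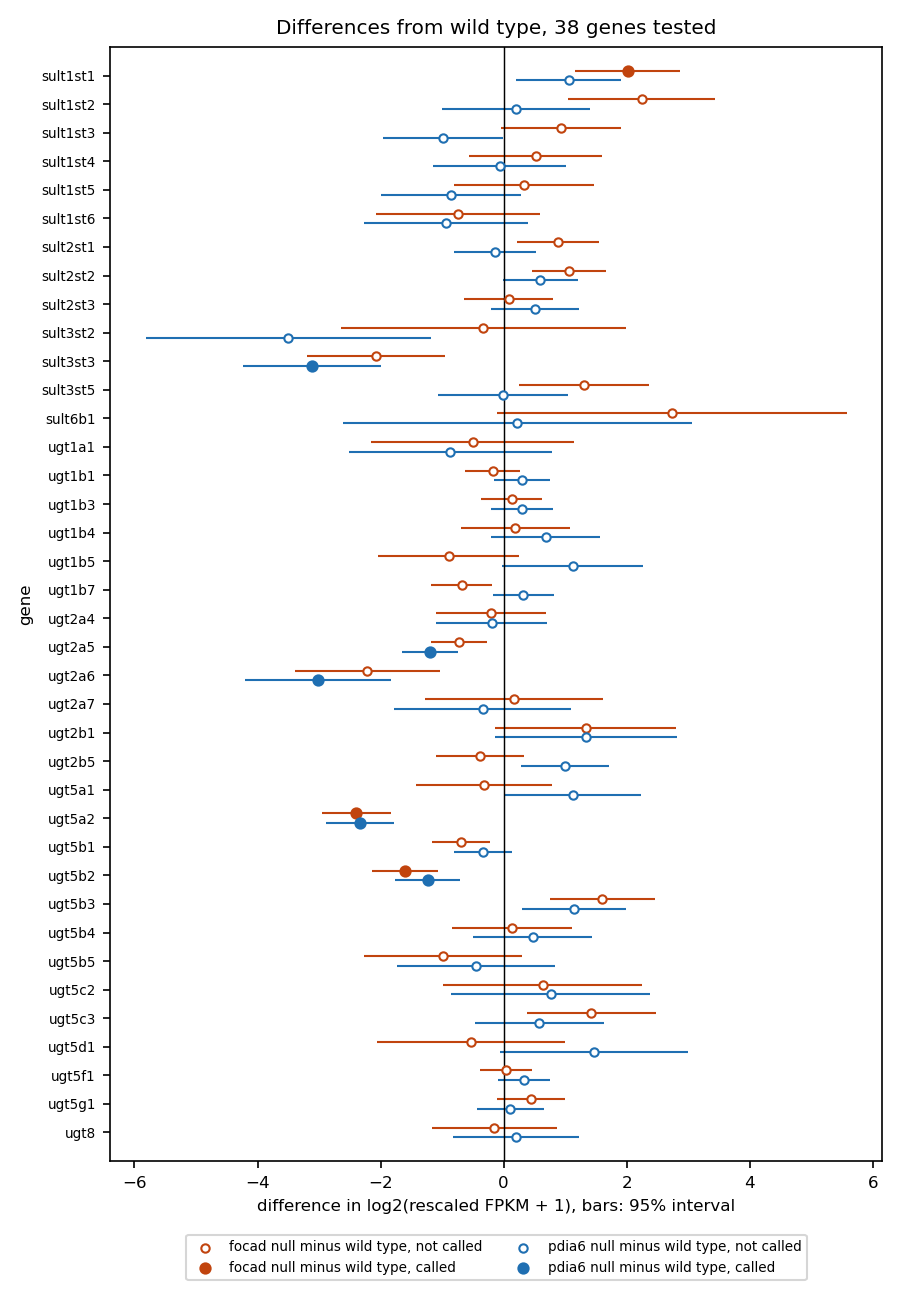
For each of the 38 genes tested, points give the difference from wild type in log2(rescaled FPKM + 1) for the focad null (orange) and the pdia6 null (blue), with 95% intervals, and filled points passed limma over all genes. Filled points are ugt5a2 and ugt5b2 in both nulls, sult1st1 in the focad null, and ugt2a5, ugt2a6 and sult3st3 in the pdia6 null.

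The median log2 difference from wild type was 0.88 over the 13 sult genes and -0.21 over the 25 ugt genes in the focad null, beside 0.01 over all genes tested. In the pdia6 null it was -0.06 and 0.30 in the same order, beside -0.01. A difference of at least 1 in size was found for 12 of the 38 genes in each comparison, beside 11.5% of all genes in the focad null and 7.93% in the pdia6 null. These counts include the genes that passed the filter through the groups in which they were high and support no statement on the families.

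Between the null groups, limma called 0 of the 38 genes, beside 1.2% of all genes, and limma voom on recovered reads called 0 as well. At an unadjusted p below 0.05 there were 14 of 38, beside 17.9% of all genes. The libraries did not overlap for 12 of 38, beside 24.4%. Without overlap, 7 genes were higher in the focad null (13.2% of all genes), namely sult1st2, sult1st3, sult2st1, sult3st2, sult3st3, sult3st5 and ugt2a5. The other 5 were higher in the pdia6 null (11.2% of all genes), namely ugt1b1, ugt1b5, ugt1b7, ugt2b5 and ugt5a1. The lowest p was that of ugt1b7, at 0.244, 0.163 and 0.454 FPKM in the focad null and 1.38, 1.17 and 2.26 in the pdia6 null (5.58-fold lower in the focad null by the means, limma adjusted p = 0.0766). Of the genes without overlap, ugt1b1, ugt1b7, sult3st2 and sult3st5 passed the filter through the groups in which they were high. Without focad null replicate 3, 4 of the 38 genes were called, beside 642 of the 13290 genes tested (160 with all libraries).

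In the authors' deposited tables, with p-values for 47 of the genes in the focad null comparison and 46 in the pdia6 null comparison, 4 ugt and sult genes were called in the focad null (1.15% of all genes) and 5 in the pdia6 null (1.69% of all genes). Of the 4, ugt5a2 and sult1st1 were also called by limma on FPKM, and sult1st2 and ugt2a6 were not. Of the 5, ugt5a2, ugt2a6 and sult3st3 were also called by limma, and ugt5b3 and sult3st4 were not. Ugt5b2 was called by limma in both comparisons and in neither deposited table. Ugt2a5 was called by limma in the pdia6 null and not in the deposited table.

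The genes that feed these enzymes were mostly not called. Of 7 genes for UDP-glucuronic acid supply none passed limma in any comparison, and the median log2 differences from wild type were 0.01 and 0.13. Ugdh, which makes UDP-glucuronic acid, was at 8.95 ± 5.72 FPKM in wild type, 24.5 ± 12.2 in the focad null and 17.9 ± 5.41 in the pdia6 null (SD, n = 3; limma adjusted p = 0.223 and 0.417). Of 9 genes for PAPS supply and recycling none passed, with medians of 0.16 and -0.13.

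Of 10 genes that lead from cysteine to inorganic sulfate, 1 passed, beside 1.23% of all genes in the pdia6 null and 1.2% between the nulls. Suox, the sulfite oxidase that makes sulfate, was at 39.0, 51.6 and 60.6 FPKM in wild type, 39.3, 16.5 and 35.8 in the focad null and 2.83, 2.19 and 3.10 in the pdia6 null. The pdia6 null libraries lay far below the other 6 libraries. Suox fell in the pdia6 null by 3.78 on the log2 scale (SE 0.34, limma adjusted p = 0.00163) and stood 3.01 higher in the focad null than in the pdia6 null (SE 0.34, adjusted p = 0.00496). Both calls held in all 9 fits that left out a library.

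Of 20 transporters for the export and uptake of conjugates, none passed against wild type, and abcg2a was higher in the focad null than in the pdia6 null, beside 1.2% of all genes called there. Its mammalian counterpart exports sulfate conjugates. Abcg2a was at 131, 205 and 154 FPKM in wild type, 203, 235 and 203 in the focad null and 83.7, 89.1 and 94.3 in the pdia6 null, where all 3 libraries lay below the rest. The difference between the nulls was 1.25 (SE 0.24, limma adjusted p = 0.0483), and the call held in 1 of the 9 fits that left out a library (adjusted p from 0.0485 to 0.162).

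Of 22 other conjugation enzymes, 1 passed in each null, beside 1.56% of all genes in the focad null and 1.23% in the pdia6 null. Gstt1b, a theta-class glutathione S-transferase, was at 9.52, 9.404 and 4.70 FPKM in wild type, 42.3, 56.7 and 58.4 in the focad null and 19.98, 26.4 and 24.3 in the pdia6 null. The 3 groups did not overlap. It rose by 2.63 on the log2 scale in the focad null (SE 0.29, limma adjusted p = 0.00339, called in all 9 fits that left out a library) and by 1.51 in the pdia6 null (SE 0.29, adjusted p = 0.0492, called in 1 of 9, with adjusted p up to 0.168). None of 12 deconjugating hydrolases, 17 xenobiotic sensing receptors or 20 genes of steroid and thyroid hormone metabolism passed in any of the 3 comparisons. Nor did any of 9 genes that make heme or lead from heme to bilirubin, with uros, cpox, ppox and fech among those of heme synthesis.

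The libraries differed in how often they held the extreme values. Pdia6 null replicate 3 was the highest library for 10 of the 38 genes, all of them ugt genes, beside 9.48% of all genes tested. The library labelled focad null replicate 2 was the highest for 11 of the 38 (28.9%), 7 of them sult genes, beside 25.7% of all genes. It was the lowest for 9 of the 38 (23.7%), beside 21.3% of all genes. Both shares were near those of all genes. Within groups, the median SD of log2(FPKM + 1) over the 38 genes was 0.442 in wild type, 0.449 in the focad null and 0.246 in the pdia6 null, beside 0.263, 0.322 and 0.258 over all genes tested.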

How the data were processed

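Liver RNA of 9 zebrafish libraries was sequenced. Tools named in the submitters' processing notes, without their roles, are TopHat2 2.0.12, Bowtie2 2.2.3 and HTSeq 0.6.1, and the genome build is danRer11. For the annotation and the strand setting, nothing was given in the sources used here. Per the labels' protocols, 1 µg of total RNA with an integrity number above 6.5 entered each library. The authors deposited FPKM per gene and library. Per the file headers, their tables of each null against wild type give mean read counts per group (a signal scaled by the authors), a log2 ratio and p-values. Their log2 column holds spreadsheet errors, so the ratio was recomputed from the deposited means.

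FPKM values were whole multiples of the value of 1 read (100% of 164580 values checked below 1000 reads, tolerance 0.05), which gave reads per gene. Each library's FPKM was rescaled by its median ratio over the 7660 genes that reached 1 FPKM everywhere. The 13290 genes whose mean reached 0.5 FPKM were fitted on log2(FPKM + 1), which understates changes of low genes, with limma 3.58.1 in R 4.3.3 (trend and robust, 3 group means, 6 residual degrees of freedom), two-sided, with Benjamini-Hochberg adjustment over all genes and a threshold of 0.05. The fit was checked on simulated data. Python 3.11.15, pandas 2.3.3 and matplotlib 3.10.9 made the tables and figures.

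The genes and lists were chosen with earlier results of these data known. Named genes were those called in any comparison, the 10 highest, the 5 with the lowest p per comparison, those without overlap and with a log2 difference of at least 1, those with no read in a group and at least 10 in every library of another, and called list genes; other ugt and sult genes named as neighbours or for low level were chosen after their values were seen. Symbols came from a table of Ensembl gene names and gene order from RefSeq GRCz12tu, a build other than the authors', without coordinates (44 of the 47 genes matched). Alternatives were other pseudocounts, filters, scalings and fits, a replicate block, libraries left out, limma voom on recovered reads and the authors' tables. Pairs of libraries within a group differed by a chi-square per degree of freedom of 152 to 799.5, beyond sampling noise.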

Additional observations from a re-analysis of the deposited data

How the results depend on the processing

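Ugt5a2 passed in both nulls in every limma setting tried, as did suox in both its comparisons and gstt1b in the focad null. Ugt5a2 reached the filter on low values through wild type, the group in which it was high. Ugt5b2 in the focad null ended only without wild-type replicate 2 or 3, and the other calls ended under several settings. Without 1 library at a time, limma called 90 to 485 genes for focad null against wild type (207 with all libraries) and 1 to 5 of the ugt and sult genes (3); 78 to 239 (163) and 1 to 6 (5) for pdia6 null against wild type; and 61 to 642 (160) and 0 to 4 (0) between the nulls. The counts over all genes in the same order of comparisons were 97, 85 and 76 with limma voom on recovered reads. Of the ugt and sult genes, voom called 2 in the pdia6 null, no filter on low values left 3, and 1 was left when both the library labelled pdia6 null replicate 1 and wild-type replicate 1 were omitted. Between the nulls, a pseudocount of 0.1 gave 254 genes with 2 ugt or sult genes, and that omission gave 70 genes. Without the library labelled focad null replicate 2 and pdia6 null replicate 1 together, a setting chosen after seeing the data, there were 104 genes between the nulls. The authors' deposited table called 428 genes in the pdia6 null, over 25307 genes tested. The cause of these moves was not tested.

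Replicate numbers are shared between groups, and same-numbered libraries correlated from -0.194 to 0.286 in their deviations from the group means. Libraries with different numbers were not compared in this way, so these values cannot decide whether the numbers pair the libraries. With a replicate block there were 121, 82 and 82 genes in the 3 comparisons, and 2 ugt and sult genes in the pdia6 null.

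Over single genes, 904 values kept direction and side of the threshold, 63 lost a call, 19 gained a call and 13 changed sign. Without wild-type replicate 3 the focad null differences became 0.81 for sult3st2, 0.27 for ugt2a4 and -0.33 for ugt5c2, and over the fits without 1 library these ran from -1.44 to 0.81, -0.56 to 0.27 and -0.33 to 1.14. The pdia6 null differences became 0.28 for ugt2a4 (from -0.55 to 0.28) and -0.20 for ugt5c2 (from -0.20 to 1.28). Without focad null replicate 3, that of sult3st2 became 0.20. For sult1st4 in the pdia6 null, FPKM as deposited gave 0.052, omission of 1 library gave -0.29 to 0.30 (the latter without wild-type replicate 2), and omission of the library labelled pdia6 null replicate 1, alone or with the library labelled focad null replicate 2, gave 0.044. For sult6b1 in the pdia6 null, omission of 1 library gave -0.37 (without the library labelled pdia6 null replicate 1) to 0.85, and omission of that library with the library labelled focad null replicate 2 or wild-type replicate 1 gave -0.37 and -0.53. Depth limits genes of few reads such as sult3st5 and sult3st4.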
